A study of Mus musculus with 4 samples.

Results

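Imprinted growth genes are genes transcribed mainly from the maternal or the paternal chromosome whose products adjust growth of the embryo, the placenta and, in adult tissues, stem and progenitor cells. The 10 genes described here were chosen by symbol, with earlier results of these data known, and 10 of 10 have a row among the 24444 genes of the table. They are H19, Igf2, Mest, Grb10, Cdkn1c, Peg3, Phlda2, Gnas, Igf2r and Plagl1. The list was drawn up with the comparison of genotypes in view, and the differences of H19 and Igf2 were known, so the differences of the 10 genes are given as a description. Their calls in the fit over all genes are counted once, and nothing is read from them. H19, Igf2, Cdkn1c, Phlda2 and Peg3 lie on chromosome 7, Mest on 6, Grb10 on 11, Gnas on 2, Igf2r on 17 and Plagl1 on 10.

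The 4 libraries hold poly(A) RNA of cultured oesophageal cells, all of the C57BL/6J strain. The 2 wild-type libraries came from untreated cells with no CRISPR/Cas9 cassette. The 2 libraries titled HET came from cells made by CRISPR/Cas9 microinjection with the Nfe2l2-E79Q cassette, here called E79Q. HET is read as heterozygous, so the name E79Q does not mean that both Nfe2l2 alleles carry the substitution. Nfe2l2 encodes NRF2, a transcription factor of antioxidant and detoxification genes, and E79Q is a tumour-derived substitution. The question put to the 10 genes is how their transcript levels compare between these genotypes. The series title speaks of a conditional mouse, but the driver of recombination, the age and sex of the animals and the number of animals behind a library could not be read from the labels. Every column name carries the word SV40, which the labels do not explain. The design text of the series names a human breast cancer line, which goes against the title and the labels of the samples, and the labels were used. Nothing states that the 2 libraries of a genotype came from separate animals or cultures, so the errors below measure only the spread between these libraries, which may be technical.

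Estimated depth was between 12600000 and 15200000 reads a library. Of the listed markers of oesophageal keratinocytes, 12 of 12 were high enough to test, among them Krt5, Krt14, Trp63 and Pax9. That level alone does not identify the cells, since 10857 of 24444 genes reached it. In the limma fit described below, 4 of the 12 were called higher in E79Q and 3 lower, 58.3% against 40.4% of all genes tested. The differences (E79Q minus wild type, log2-like scale) were 0.74 for Dsg3, 0.73 for Itga6, 0.49 for Krt13 and 0.30 for Col17a1. They were -0.58 for Krt15, -0.45 for Sox2 and -0.13 for Krt14. The defining markers Ptprc, Adgre1 and Cd3e of immune cells, and Myod1, Myf5 and Pax7 of skeletal muscle, stood at the floor of the table, the value of a gene without reads, in 4 of 4 libraries. From the same lists, Cd68 of immune cells was called higher in E79Q, at 184 and 164 normalised counts in wild type against 370 and 405. Acta2 of muscle was called lower, at 859 and 880 against 259 and 250. The other listed immune and muscle markers were too low to test. Nfe2l2 itself lay between 11.17 and 11.38, and its level does not check a substitution. The Xist transcript, made by the inactive X chromosome, was at 3809 and 4348 normalised counts in wild type against 6.25 and 1.19 in E79Q. Transcripts of the Y chromosome were present in both genotypes, with Kdm5d at 401 and 407 in wild type and 465 and 459 in E79Q, and Ddx3y at 571 and 497 against 823 and 934. Uty was at 223 and 209 in wild type against 304 and 322 in E79Q, Eif2s3y at 694 and 663 against 698 and 731, and Tsix, antisense to Xist, at 94.2 and 118 against 0.281 and 0. The 2 genotypes therefore differ in Xist as well as in the allele, and what either contributes to the values below cannot be told apart.

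In mammals a parental mark of DNA methylation at an imprinting control region decides which chromosome transcribes the genes of a cluster. At the H19 and Igf2 cluster the insulator protein CTCF binds the unmethylated maternal copy, so that the maternal chromosome makes H19 and the paternal one makes Igf2. Many of these genes are high in the embryo and in mesenchymal cells and are silenced after birth in most tissues. Of the 10 genes, H19, Grb10, Cdkn1c, Phlda2 and Igf2r are known as maternally expressed, and Igf2, Mest, Peg3 and Plagl1 as paternally expressed. Gnas holds transcripts of both kinds and its main product is expressed from the maternal copy only in some tissues. It is counted here with the maternally expressed genes. The deposited values are gene totals over both chromosomes and do not separate the parental alleles.

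H19 makes a long non-coding RNA that is also the precursor of a microRNA, and Igf2 and Mest each carry one in an intron. These RNAs are shown because they are products of the 3 genes that stood lowest in E79Q. The sequences are from RefSeq (GRCm38.p6), and the values come from a processing whose notes name build mm9. The hairpin of mir-675 lies at chr7:142577064-142577147 on the minus strand and was found within an exon in 3 of the 7 H19 transcripts of the GENCODE M21 annotation, with its mature arms in capitals.
mir-675: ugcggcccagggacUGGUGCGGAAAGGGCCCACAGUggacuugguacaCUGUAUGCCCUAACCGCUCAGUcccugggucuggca
The mature RNAs of the 3 hosts follow, with the seed, bases 2 to 8, in capitals. None of the 6 seeds is shared. The hairpins of Igf2 at chr7:142654924-142654996, minus strand, and of Mest at chr6:30741299-30741396, plus strand, lie in introns.
mmu-miR-675-5p (H19): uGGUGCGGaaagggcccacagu
mmu-miR-675-3p (H19): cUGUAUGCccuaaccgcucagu
mmu-miR-483-5p (Igf2): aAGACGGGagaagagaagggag
mmu-miR-483-3p (Igf2): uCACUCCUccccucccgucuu
mmu-miR-335-5p (Mest): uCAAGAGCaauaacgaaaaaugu
mmu-miR-335-3p (Mest): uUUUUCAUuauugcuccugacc
The rows Mir675, Mir483 and Mir335 of the table stood at the floor in 4 of 4 libraries. A poly(A) library does not capture mature microRNAs, so these rows say nothing of their level.

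Upstream sequences of the 4 genes with the largest differences that have an entry are shown with each CG dinucleotide, the site of DNA methylation, in capitals. H19 and Cdkn1c have no entry. Each is the 250 bases before a RefSeq start (GRCm38.p6), and where a gene has several starts the one with the most CG dinucleotides is given.
Igf2, chr7:142658805-142659054, minus strand: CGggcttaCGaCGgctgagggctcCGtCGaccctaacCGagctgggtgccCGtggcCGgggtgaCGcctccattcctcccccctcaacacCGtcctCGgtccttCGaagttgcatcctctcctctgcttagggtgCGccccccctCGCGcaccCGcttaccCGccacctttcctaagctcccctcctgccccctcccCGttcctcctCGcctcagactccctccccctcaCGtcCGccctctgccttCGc
Mest, chr6:30737800-30738049, plus strand: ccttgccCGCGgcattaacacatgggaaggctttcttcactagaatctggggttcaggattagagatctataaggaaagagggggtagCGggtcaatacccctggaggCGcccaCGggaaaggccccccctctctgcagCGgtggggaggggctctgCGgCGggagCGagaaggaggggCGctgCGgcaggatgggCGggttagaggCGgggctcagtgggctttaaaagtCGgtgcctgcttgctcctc
Grb10, chr11:12037421-12037670, minus strand: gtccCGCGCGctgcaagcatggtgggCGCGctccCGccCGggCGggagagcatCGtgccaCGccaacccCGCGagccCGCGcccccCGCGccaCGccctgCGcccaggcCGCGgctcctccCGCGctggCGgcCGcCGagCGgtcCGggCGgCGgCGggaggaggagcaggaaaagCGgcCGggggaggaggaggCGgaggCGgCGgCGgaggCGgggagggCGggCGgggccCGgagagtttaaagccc
Phlda2, chr7:143502525-143502774, minus strand: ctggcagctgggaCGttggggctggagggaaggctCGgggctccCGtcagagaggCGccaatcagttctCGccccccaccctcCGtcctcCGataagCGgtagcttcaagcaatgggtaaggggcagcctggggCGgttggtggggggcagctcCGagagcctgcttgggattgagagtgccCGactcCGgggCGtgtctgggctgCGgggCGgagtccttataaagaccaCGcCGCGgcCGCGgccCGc
These windows held 22, 14, 40 and 21 CG dinucleotides, against a median of 6 (quartiles 2 and 16) over the 32851 upstream windows of the same length in the table. The comparison is uneven, since the shown windows were picked for the most CG dinucleotides and the others were not. The windows not shown held 1, 10 and 6 in Igf2, 7 and 14 in Mest and 8 in Grb10, and Phlda2 has no other. The antioxidant response element to which NRF2 binds with small MAF proteins was searched as TGACNNNGC on both strands. It was in 0 of the 17 windows of the 8 genes with an entry and in 10.2% of all windows. The count says only that these letters are not in these windows. Methylation was not measured in this series, and gene totals do not tell which start was used.

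Values are deposited variance-stabilised values on a log2-like scale, and differences are E79Q minus wild type with the limma SE over 2 pairs of libraries with the same replicate number. This scale compresses changes of low genes, so normalised counts computed by inverting it are given beside it. They are approximate. Wild-type and E79Q values of each replicate number have the same sum in every gene, so the libraries of a number mirror each other around the gene mean, and the distance between replicates is the same in both genotypes by construction. In such bulk values, fewer cells of a type and less RNA per cell cannot be told apart.

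**Figure D1:**
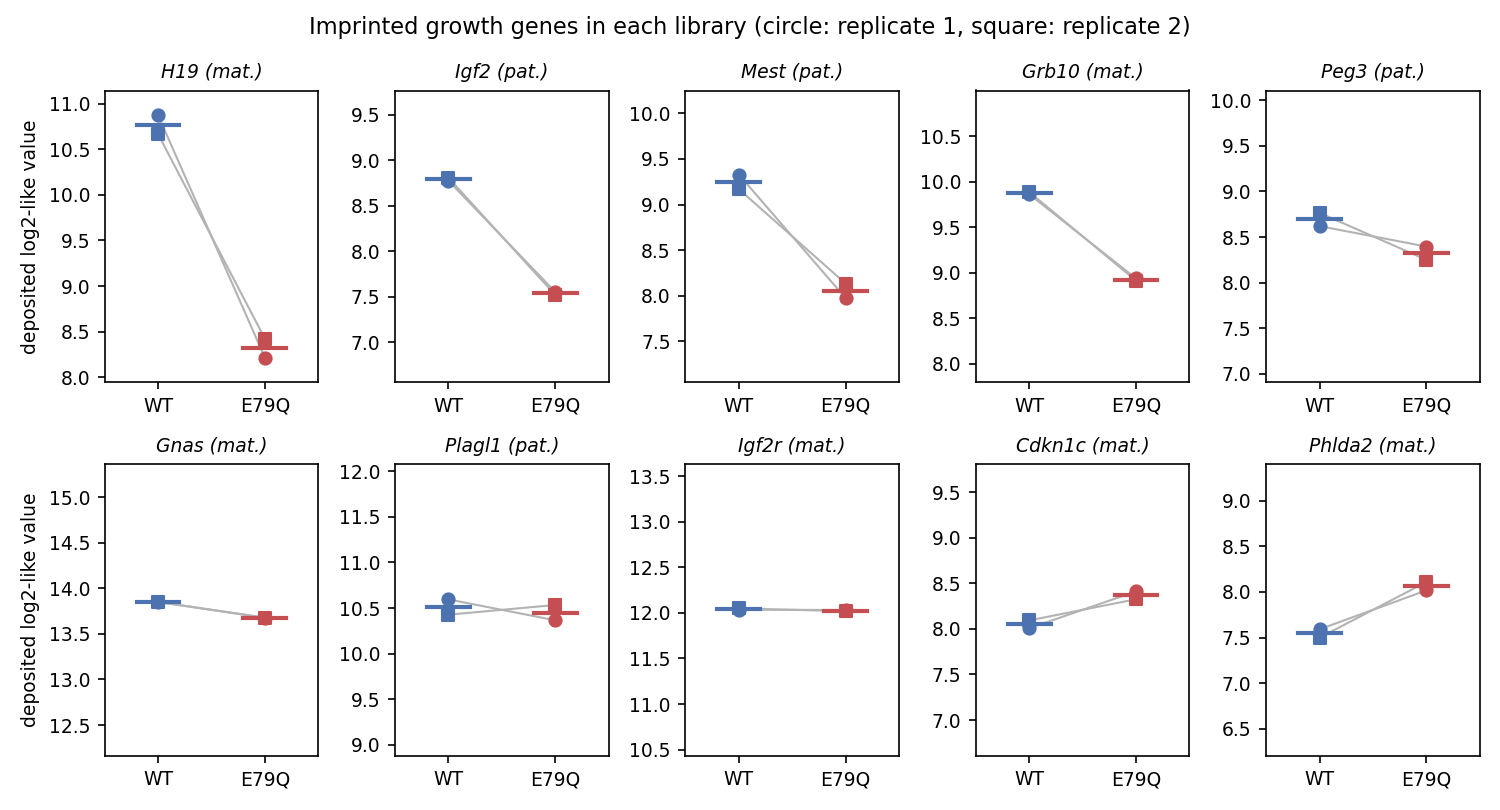
Deposited log2-like values of the 10 genes in each library, ordered by difference; circles are replicate 1, squares replicate 2, short bars the means of the 2 libraries, grey lines join libraries of 1 number, and mat. and pat. mark the allele known to be expressed. Every panel spans the same range of values; H19 drops from 10.88 and 10.67 in wild type to 8.22 and 8.42 in E79Q, and Igf2r lies between 12.02 and 12.05.

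Of the 10 genes, the growth factor and its non-coding partner fell most from wild type to E79Q. H19 was at 10.88 and 10.67 in wild type against 8.22 and 8.42 in E79Q. In normalised counts these were 1636 and 1385 in wild type and 98.6 and 137 in E79Q. Both E79Q libraries lay far below both wild-type libraries, with 16.6-fold less H19 in pair 1 and 10.1-fold less in pair 2. The difference was -2.45 ± 0.08 (SE, n = 2 pairs), the second lowest (rank 2) of 10857 genes tested. Igf2, the insulin-like growth factor of fetal growth, was at 8.77 and 8.81 in wild type against 7.55 and 7.52 in E79Q. The counts of 222 and 231 in wild type and of 20.3 and 18.1 in E79Q did not overlap, and the ratio was 10.9-fold in pair 1 and 12.8-fold in pair 2. Its difference was -1.25 ± 0.07 and ranked 18 from the lowest. Although H19 and Igf2 differ by more than 1 unit on the compressed scale, their ratios of mean normalised counts were alike in size, 12.8-fold and 11.8-fold lower in E79Q. The lowest Igf2 library rests on an estimated 16.9 reads, a counting error of 24.3%, and the lowest H19 library on 109 reads, 9.56%.

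The enzyme-like and adaptor genes Mest and Grb10 followed. Mest, which encodes a protein of the alpha/beta hydrolase fold and whose loss from the paternal allele reduces growth, was at 9.33 and 9.17 in wild type against 7.97 and 8.13 in E79Q. Its normalised counts were 416 and 351 against 62.5 and 85.2. Both E79Q libraries were lower, by 6.65-fold and 4.12-fold, and the difference was -1.20 ± 0.08, rank 22. Grb10, an adaptor that binds the insulin and IGF1 receptors and restrains their signal, was at 9.86 and 9.89 in wild type against 8.94 and 8.91 in E79Q. The counts were 696 and 711 against 271 and 263. Replicates of Grb10 lay close together, and it was lower by 2.57-fold and 2.70-fold, a difference of -0.95 ± 0.06, rank 35. The growth promoters Igf2 and Mest and the growth restrainers H19 and Grb10 stood lower in the same libraries.

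Peg3, a zinc-finger protein of maternal behaviour and growth, was at 8.62 and 8.77 in wild type against 8.40 and 8.25 in E79Q. The counts of 182 and 219.7 in wild type and 132 and 105 in E79Q did not overlap, and the difference was -0.37 ± 0.08. Its 2 pairs were less alike, with -0.22 in pair 1 and -0.52 in pair 2. Gnas, the locus of the stimulatory G protein alpha subunit that carries hormone signals to adenylyl cyclase, was at 13.85 in both wild-type libraries and at 13.68 in both E79Q libraries. The difference of -0.17 ± 0.04 is a 1.13-fold ratio of normalised counts. The row of Gnas sums several transcripts with different imprints, so a shift of 1 of them cannot be read from it.

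The 2 growth inhibitors of the cluster next to the Igf2 cluster on chromosome 7 stood higher in E79Q. Phlda2, a small protein with a pleckstrin homology domain that limits placental growth, was at 7.59 and 7.50 in wild type against 8.02 and 8.11 in E79Q. Its normalised counts were 23.1 and 16.6 against 68.4 and 81.6, with ratios of 2.96-fold and 4.91-fold. The difference was 0.52 ± 0.08, rank 274 from the highest, and the lowest library rests on an estimated 15.6 reads, a counting error of 25.4%. Cdkn1c, the cyclin-dependent kinase inhibitor p57, was at 8.01 and 8.09 in wild type against 8.41 and 8.33 in E79Q. The counts of 66.9 and 79.1 in wild type stood below the 135 and 118 of E79Q, a difference of 0.32 ± 0.07 and ratios of 2.02-fold and 1.49-fold.

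The receptor that removes IGF2 and the transcription factor of the group differed least. Igf2r, which carries IGF2 to the lysosome, was at 12.04 and 12.05 in wild type against 12.03 and 12.02 in E79Q. The difference was -0.02 ± 0.05. The libraries of both genotypes lay within 3901 and 3987 normalised counts, a depth at which the counting error of the lowest library is 1.66%. Plagl1, a zinc-finger transcription factor known to activate other imprinted genes, was at 10.59 and 10.43 in wild type against 10.37 and 10.53 in E79Q. Its groups overlapped, the pairs had opposite signs (-0.23 and 0.11), and the difference was -0.06 ± 0.07. Without replicate 1 of either genotype it turned to 0.02.

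**Figure D2:**
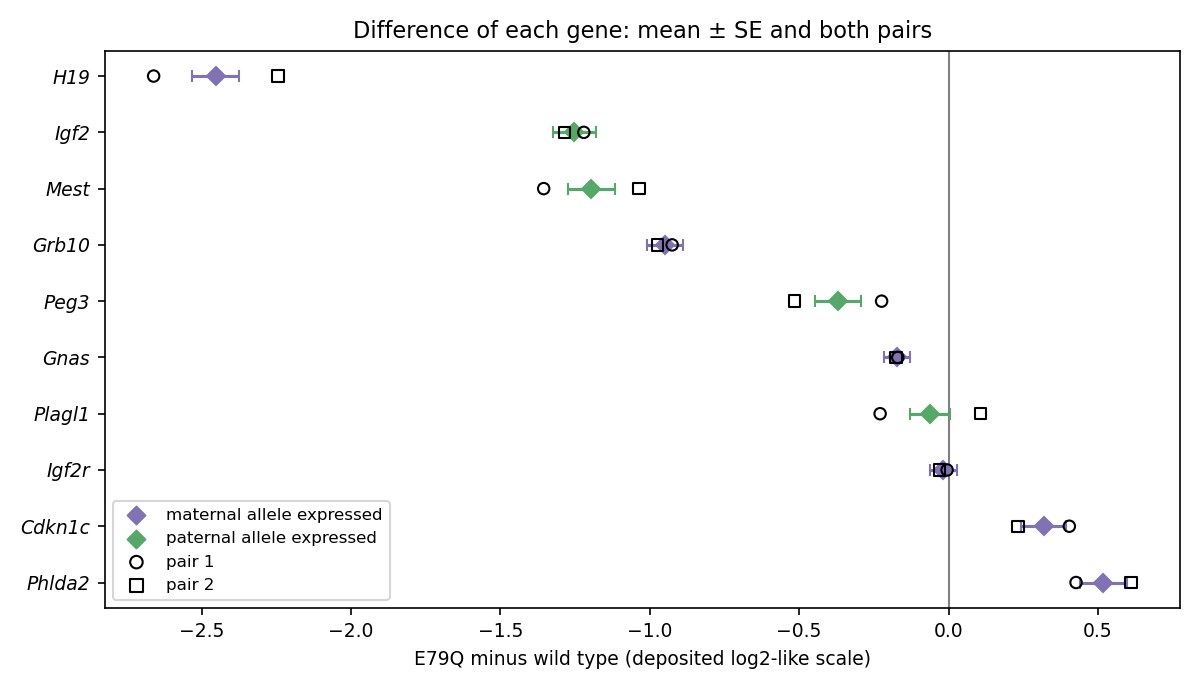
Difference between E79Q and wild type for each of the 10 genes on the deposited log2-like scale; diamonds are means with the limma SE, open circles and squares the pairs of replicate 1 and replicate 2, and colour the parental allele known to be expressed. H19 lies at -2.45, Igf2, Mest and Grb10 between -1.25 and -0.95, and Cdkn1c and Phlda2 at 0.32 and 0.52.

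Of the 10 genes, 8 were called at a limma Benjamini-Hochberg adjusted p under 0.05 over all genes tested, 6 lower and 2 higher in E79Q. The background was 40.4% of 10857 genes called, 18.9% lower and 21.5% higher. Genotypes did not overlap in 9 of the 10 genes, against 79.2% of all genes tested. Nothing is read from these counts, since the genes were chosen with this comparison in view. Igf2 passed the filter on low values only through wild type and Phlda2 only through E79Q, so these 2 had to differ once they were tested. The median difference of the 10 genes was -0.27, against 0.01 over all genes tested. The genes whose rank is not given above lay further from the ends. Peg3 ranked 459, Gnas 1816, Plagl1 3783 and Igf2r 4836 from the lowest, and Cdkn1c 771 from the highest. With 2 pairs an exact permutation test reaches no two-sided p below 0.5, and the SEs rest on a spread pooled over genes.

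By parental allele, the sign was mixed among the 6 maternally expressed genes, with H19, Grb10, Gnas and Igf2r below 0 and Phlda2 and Cdkn1c above it. Their differences ran from -2.45 to 0.52 with a median of -0.10. The 4 paternally expressed genes, Igf2, Mest, Peg3 and Plagl1, ran from -1.25 to -0.06 with a median of -0.78, and the pairs of Plagl1 had opposite signs. These are descriptions of genes chosen with their differences known. H19 and Igf2, which the maternal and the paternal chromosome make from 1 cluster, were both lower in E79Q. The ranges of the maternal and paternal genes overlap.

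Each cluster was then followed along its chromosome, in the gene order of RefSeq (GRCm38.p6). Next to H19 and Igf2, 7 of the 12 listed genes of the region were too low to test. The mitochondrial ribosomal protein gene Mrpl23, on the H19 side, was not called (0.10 ± 0.06), nor was the lysosomal protease gene Ctsd (-0.04 ± 0.04). Syt8, a synaptotagmin gene between them, rose by 0.21 ± 0.07 (limma adjusted p = 0.0235). Ins2, Tnnt3 and Nctc1 were at the floor in 4 of 4 libraries. Lsp1, a cytoskeletal protein gene of white blood cells, was too low to test at 32.9 and 27.5 normalised counts in wild type and 4.86 and 7.18 in E79Q. The differences of the 3 tested neighbours lay between -0.04 and 0.21.

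In the cluster of Cdkn1c and Phlda2, controlled by the non-coding RNA Kcnq1ot1 made on the paternal chromosome, 9 of 12 listed genes were tested, with 4 called higher and 0 lower. That is 44.4% called, near the 40.4% of all genes tested, of which 21.5% were called higher. Besides Phlda2 and Cdkn1c these were Slc22a18, an organic cation transporter gene between them, at 0.24 ± 0.07 (limma adjusted p = 0.0194), and Osbpl5, an oxysterol-binding protein gene, at 0.24 ± 0.06 (limma adjusted p = 0.00729). Slc22a18 had 37.3 and 37.1 normalised counts in wild type and 64.1 and 64.4 in E79Q. Like Phlda2, it passed the filter on low values only through E79Q, so both had to differ once they were tested. Kcnq1ot1 was not called (0.02 ± 0.08), with pairs of opposite sign. Nap1l4, Cars, Tssc4 and Cd81 were not called, with differences between -0.05 and 0.11. Kcnq1 was too low to test, at 9.54 and 10.5 normalised counts in wild type and 21.4 and 20.0 in E79Q. Trpm5 was at the floor and Tspan32 had at most 0.545 normalised counts in a library.

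**Figure D3:**
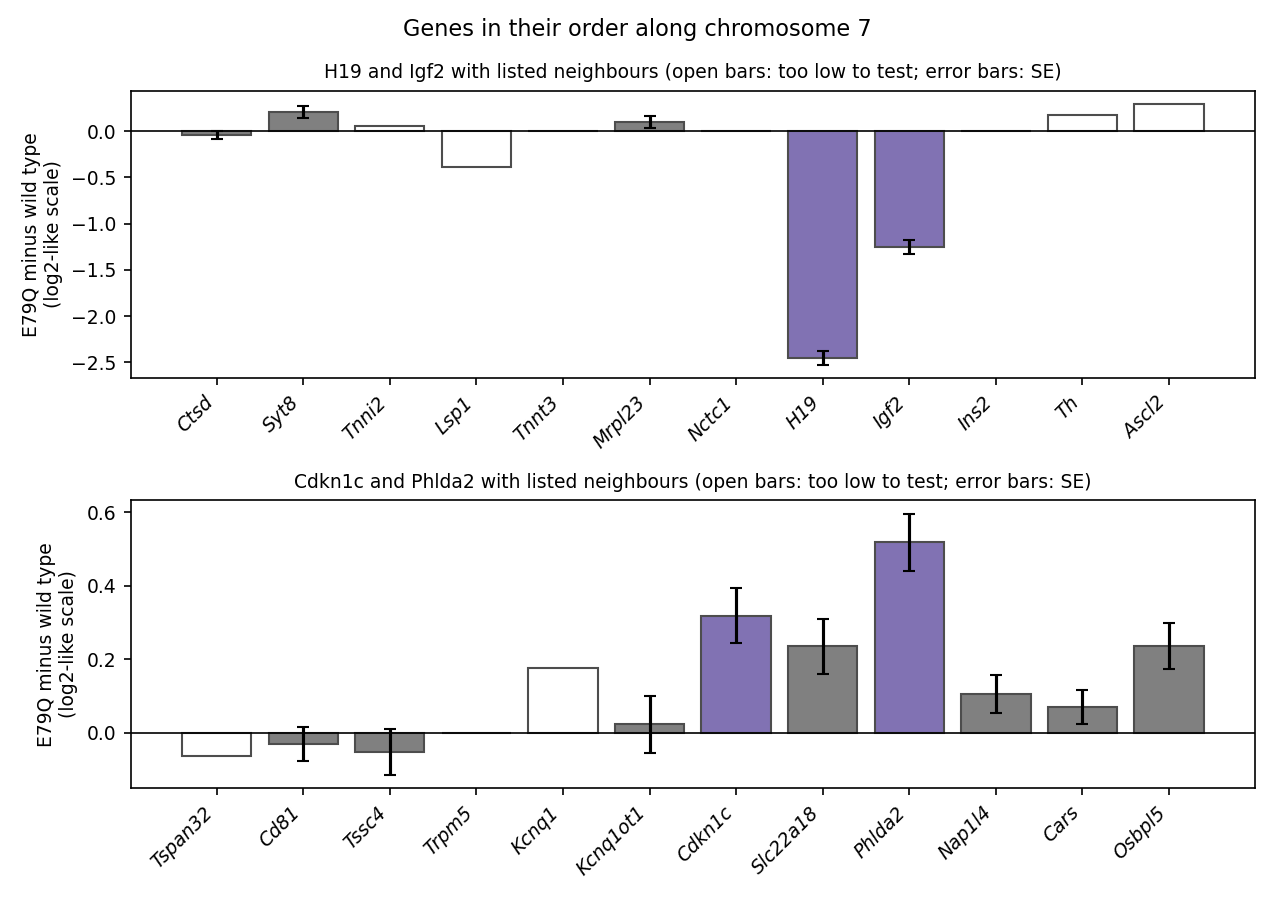
Difference between E79Q and wild type for genes of the H19 and Igf2 region (upper) and of the Cdkn1c and Phlda2 region (lower), in their order along chromosome 7; purple bars are the imprinted growth genes, grey bars other tested genes with the limma SE, and open bars genes too low to test. The vertical scales differ: the upper panel reaches -2.45 at H19, the lower 0.52 at Phlda2.

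At the other loci the tested neighbours differed in both directions. Next to Mest, Copg2, a coat protein gene that overlaps it on the opposite strand, was at 0.03 ± 0.05 and Cep41, a centrosomal protein gene, at -0.14 ± 0.08, neither called. Next to Grb10, the actin nucleator gene Cobl was called higher by limma (0.40 ± 0.06, adjusted p = 3.06e-05), Fignl1 was not called (0.10 ± 0.05), and Ddc was at the floor. Beyond Igf2r, the listed genes Acat2 (-0.71 ± 0.06, limma adjusted p = 2.09e-07), Tcp1 (-0.25 ± 0.05, limma adjusted p = 0.000380) and Mrpl18 (-0.25 ± 0.06, limma adjusted p = 0.00417) fell while Igf2r did not. Acat2 takes part in sterol synthesis, Tcp1 is a chaperonin subunit and Mrpl18 a mitochondrial ribosomal protein. The antisense RNA of Igf2r, Airn, was too low to test at 9.37 and 16.0 normalised counts in wild type and 8.61 and 3.98 in E79Q. Next to Gnas, Npepl1, Stx16, Ctsz and Atp5e were not called, between 0.00 and 0.12. Next to Plagl1 the ribosome biogenesis gene Ltv1 rose by 0.35 ± 0.05 (limma adjusted p = 9.76e-05) and 4 other neighbours were not called. Usp29 and Zim1, next to Peg3, were too low to test. The labels state no strand setting for the counting, so reads of Mest and Copg2, of Igf2r and Airn, of Gnas and Nespas and of Kcnq1 and Kcnq1ot1 cannot be told apart where they overlap.

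Other imprinted genes were followed as a comparison. Of 63 listed genes, 26 were high enough to test, 37 were not, and 10 of those stood at the floor in 4 of 4 libraries. In the tested genes 12 were called, 9 higher and 3 lower, or 46.2%, against 40.4% of all genes tested, a share near the background. Their differences ran from -0.28 to 0.32 with a median of 0.07. On the deposited scale those of H19, Igf2, Mest, Grb10 and Peg3 lie below this range and that of Phlda2 above it. The differences of Cdkn1c, Gnas, Igf2r and Plagl1 lie within it. The difference between the lists was not tested. Genes too low to test could differ by more in normalised counts, as Peg10 did with a 9.29-fold lower mean in E79Q.

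Among the other maternally expressed genes 7 were called higher and 1 lower of 16 tested, with a median of 0.12, while 21.5% of all genes were called higher and 18.9% lower. Atp10a, a phospholipid flippase gene, rose by 0.32 ± 0.06 (limma adjusted p = 0.000874), and Ube3a, the ubiquitin ligase gene of Angelman syndrome imprinted in neurons, by 0.21 ± 0.05 (limma adjusted p = 0.00531). Casd1, a sialic acid acetyltransferase gene near Peg10, fell by 0.21 ± 0.07 (limma adjusted p = 0.0273). Among the other paternally expressed genes 2 were called higher and 2 lower of 10 tested, with a median of -0.03, beside the same shares of all genes. Peg13, a non-coding RNA inside the maternally expressed gene Trappc9, fell by 0.28 ± 0.07 (limma adjusted p = 0.00800), and Trappc9 rose by 0.19 ± 0.06 (limma adjusted p = 0.0194). Peg13 passed the filter on low values only through wild type, so it had to differ once it was tested. Gab1, a docking protein gene of growth factor receptors, fell by 0.23 ± 0.06 (limma adjusted p = 0.00848), and Bcl2l1, the survival gene of BCL-XL, rose by 0.25 ± 0.05 (limma adjusted p = 0.00177). Snrpn, a splicing protein gene, rose by 0.22 ± 0.07 (limma adjusted p = 0.0194), while Snurf, which shares its transcript and whose reads may be split with it, was not called (0.14 ± 0.08).

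Listed genes of imprint maintenance and of DNA methylation and its removal had differences between -0.21 and 0.34 where tested. Of 18 tested, 3 were called higher and 2 lower, or 27.8% against 40.4% of all genes, with a median of -0.00. Ctcf was at -0.04 ± 0.05 and the maintenance DNA methyltransferase gene Dnmt1 at 0.05 ± 0.04, neither called. Zfp57, which binds methylated imprinting control regions, rose by 0.34 ± 0.07 (limma adjusted p = 0.00134). Its normalised counts were 88.4 and 89.0 in wild type against 152 and 151 in E79Q. Trim28, the corepressor of Zfp57, fell by 0.21 ± 0.05 (limma adjusted p = 0.00205). Tet2, a methylcytosine dioxygenase gene, rose by 0.29 ± 0.06 (limma adjusted p = 0.00131), Arid4b by 0.21 ± 0.06 (limma adjusted p = 0.00830), and Setdb1, a histone methyltransferase gene, fell by 0.16 ± 0.05 (limma adjusted p = 0.0304).

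Around Igf2, the genes that receive, bind or process IGF2 changed in both directions. Of 15 tested, 4 were called higher and 6 lower, or 66.7% against 40.4% of all genes, with a median of -0.02. The receptor genes Igf1r and Insr were not called (-0.02 ± 0.05 and 0.01 ± 0.05). Igfbp7, a secreted IGF-binding protein gene, fell by 0.76 ± 0.05 (limma adjusted p = 3.57e-09), and Pappa, the protease that frees IGF from its binding proteins, fell by 0.91 ± 0.10 (limma adjusted p = 2.90e-06), from 97.6 and 147 normalised counts to 20.8 and 6.37. Pappa passed the filter on low values only through wild type, so it had to differ once it was tested. Igfbp3 fell by 0.29 ± 0.05 (limma adjusted p = 0.000366). Igf2bp1, an RNA-binding protein of Igf2 and H19 transcripts, rose by 0.78 ± 0.07 (limma adjusted p = 5.90e-07), and Irs2, an adaptor of the insulin and IGF1 receptors, by 0.59 ± 0.06 (limma adjusted p = 1.30e-06). Igf1 itself was too low to test, with at most 1.8 normalised counts in a library.

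**Figure D4:**
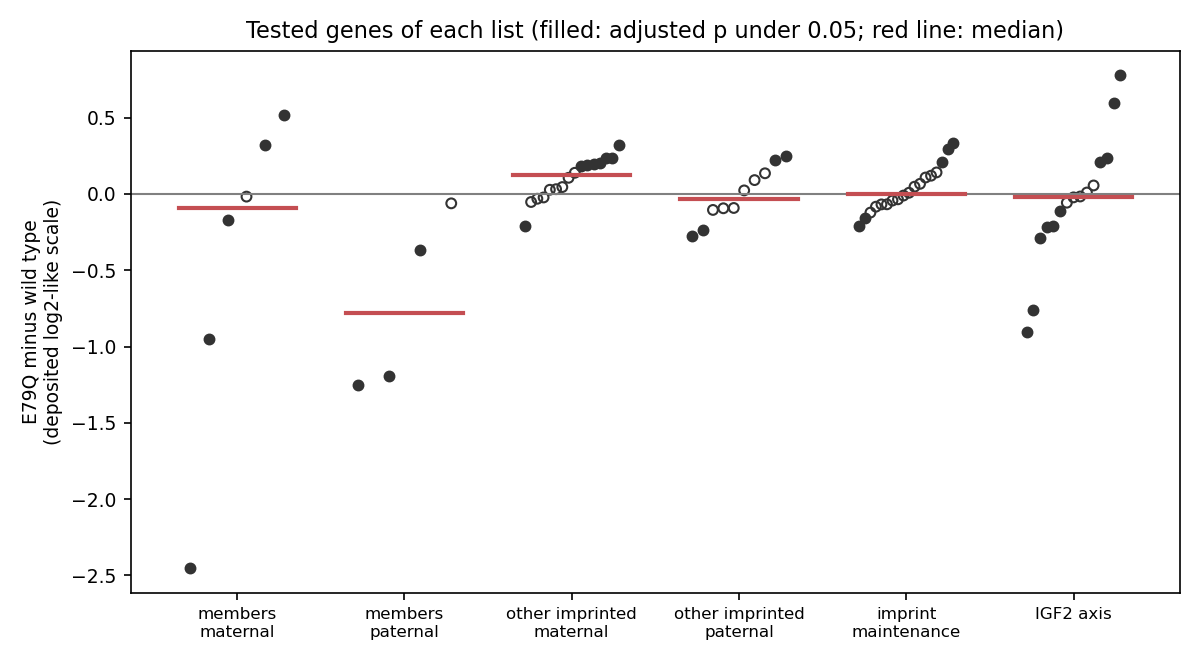
Differences between E79Q and wild type for the tested genes of 6 lists on the deposited log2-like scale; each point is a gene, filled where its limma adjusted p is under 0.05, and red lines are medians. The tested other imprinted genes lie between -0.28 and 0.32, inside the spread of the imprinted growth genes from -2.45 to 0.52.

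Genes with the most similar pattern were sought by the smallest Euclidean distance between values of the 4 libraries, each minus the gene mean, over 10857 tested genes. Nearest to Igf2 were Acta2 (smooth muscle actin, distance 0.03), Cdh2 (N-cadherin, 0.05), Tnc (tenascin C, 0.05), Col1a1 (a collagen I chain, 0.06) and Fstl1 (a secreted glycoprotein, 0.07). Nearest to H19 were Col5a1 (0.57), Vim (0.85), Clu (1.05), Glul (1.07) and Gfra2 (1.12), at larger distances since few genes differ as much. With values that mirror each other within a pair, this measure holds little beyond the 2 pair differences.

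Markers of mesenchymal cells differed in both directions. Of 15 listed fibroblast markers 4 reached the level for a test. Calls were lower for Col1a1 and for Fbln2 and higher for Fbln1, where 18.9% of all genes were called lower and 21.5% higher. Col1a1 was at 305 and 333 normalised counts in wild type against 44.9 and 36.7 in E79Q. It passed the filter on low values only through wild type, so it had to differ once it was tested. Fbln1, the gene of the matrix protein fibulin 1, was at 551 and 551 in wild type against 700.1 and 701 in E79Q. Fbln2, the fibulin 2 gene, was at 2072 and 2066 against 1379 and 1383, and it makes up most of the summed level of the 15 markers, which was 3234 and 3228 normalised counts in wild type and 2312 and 2333 in E79Q. Twist1 was tested and not called, at 142 and 135 normalised counts in wild type against 103 and 109 in E79Q. Among markers too low to test, Postn was lower in E79Q, at 42.7 and 45.7 against 6.17 and 5.15. Col1a2 (66.0 and 52.5 against 31.3 and 41.6) and Col3a1 (21.4 and 20.2 against 11.8 and 12.8) were lower too. Thy1, also too low to test, was higher, at 0.218 and 0.989 against 6.73 and 4.26. Lum and Dpt were at the floor in 4 of 4 libraries, Pdgfra had between 7.1 and 11.1 normalised counts, and Dcn was within 0.01 of the floor in wild type and had 10.8 and 10.7 in E79Q. Of 10 muscle markers 1 was tested, Acta2, which fell by 1.23 ± 0.06 (limma adjusted p = 3.35e-10), and Myod1, Myf5, Pax7 and Actc1 were at the floor. Des and Myh11, of the same list, were higher in E79Q but too low to test, at most 5.59 normalised counts in a library. Cnn1 and Ckm, also too low to test, were lower in E79Q. Cnn1 had 9.20 and 19.6 normalised counts in wild type against 7.65 and 1.92, and Ckm 0.994 and 1.04 against 0.00015 and 0. The sum of 6 immune markers was 190.2 and 168 normalised counts in wild type against 377 and 414 in E79Q, mostly Cd68, and that of 5 endothelial markers lay between 10.7 and 23.1. Cd68, the 1 immune marker tested, was called higher (0.67 ± 0.07, limma adjusted p = 1.34e-06). The part of these cells in the values of the imprinted growth genes was not tested.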

How the data were processed

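Poly(A) RNA of 4 libraries was extracted with TRIzol and prepared with an NEB kit, per the labels. The authors deposited log2-like variance-stabilised values of normalised counts, 1 per gene and library. Build mm9, Salmon 0.11.3, STAR 2.5.2b, DESeq2 and DESeq 1.22.2 are named in the submitters' processing notes without roles. The sources used here give neither annotation nor strand setting. Columns were matched to samples by genotype and replicate number.

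In every gene the sum over genotypes is equal for replicate 1 and replicate 2 (to within 1.31e-13), so the deposited values had been centred by replicate number, which is in none of the labels. For this reason the numbers pair the libraries, and the fit carries them as a block (1 residual degree of freedom).

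The 10857 genes with a value at least 1 above the lowest of the table in at least 2 libraries were fitted with limma 3.58.1 in R 4.3.3 (mean-variance trend, two-sided, Benjamini-Hochberg, 0.05). Prior degrees of freedom were 14.6, so most precision is borrowed across genes. Normalised counts q were computed as (y - f)(y - f)/y, with y and f the antilogs of the value and of the floor, 6.98, and set to 0 below it. The formula was applied to the centred values, so printed counts are approximate and are not whole reads. For size factors the centring was first undone in genes with reads in 1 library only, where it can be, and 100% of these came out as whole reads (within 0.01) in 4 of 4 libraries. This does not check the counts of other genes. The size factors gave the depth estimates.

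The members and the lists were chosen with earlier results of these data known. Named are the 10 members and, from each other list, called genes with up to 3 largest differences in each direction. Most listed genes of the same loci, the 5 nearest patterns of H19 and Igf2 and the sex genes are named too. Other genes named were chosen after their values were seen. Listed Tsga14 was read as Cep41, and Zfp264 had no match. Alternatives covered the block, the filter, scaling, empirical Bayes, single libraries left out and the count scale.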

Additional observations from a re-analysis of the deposited data

How the results depend on the processing

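Of 106 alternative fits of single members, 104 kept the direction and the side of the threshold. The exceptions were Plagl1 without replicate 1 of either genotype. Leaving out a library moved Plagl1 between -0.15 and 0.0223. Much of this was fixed in advance. Changing the block, the filter or the empirical Bayes setting leaves each difference as it is, so only the call could move. Because of the centring, leaving out the same replicate number from either genotype gives the same difference. Without the replicate block (2 residual degrees of freedom), 8 members, 12 other imprinted genes and 6004 genes in all were called, against 8, 12 and 4388 with it. A stricter filter (2 above the lowest value) left 6 members to test and called 4 of them, all lower, so the count fell by construction. The number of other imprinted genes called stayed between 8 and 14 in all alternatives. Median centring and quantile normalization moved the median difference of all genes from 0.01 to -0.01 and -0.00. On the scale of normalised counts the log2 ratios of H19 were -4.05 and -3.33 and those of Igf2 -3.45 and -3.67 in the 2 pairs. Leave-one-out fits carried genotype alone, since the block leaves no residual. The lone library is there assumed to vary like the other genotype. Depth limits Igf2 in E79Q and Phlda2 in wild type most.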

Other observations

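Several imprinted genes lay below the level needed for a test, and the genes named here were chosen after their values were seen. Peg10, Sgce and Ndn are among the paternally expressed genes that were lower in both E79Q libraries. Peg10, a gene derived from a retrotransposon, had 12.4 and 14.1 normalised counts in wild type and 1.71 and 1.14 in E79Q. Its neighbour Sgce, the sarcoglycan epsilon gene transcribed from the same region, had 19.1 and 11.5 against 2.39 and 6.35. Ndn, of the Prader-Willi region, had 23.0 and 30.7 against 12.8 and 8.12. No test was made at these levels. In the opposite direction, Dlk1, a paternally expressed Notch ligand relative, was within 0.01 of the floor in wild type and had 3.50 and 3.31 in E79Q, and the maternally expressed Meg3 of the same cluster had 0.610 and 0.0416 against 2.87 and 5.17. Fractions of a count arise because values were centred by pair before deposit.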
